A study of Homo sapiens with 8 samples.

Results

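This account describes 42 genes whose products build ribosomes in the nucleolus, the compartment in which ribosomal RNA (rRNA) is transcribed, trimmed, modified and packed with ribosomal proteins. They were chosen by name, from their known part in rRNA processing and ribosome assembly, with earlier results of these data known, and 41 of them had a row among the 52576 genes of the deposited table. RRS1 was not analysed here. PPAN had a mean under 1 RPKM (read density scaled to gene length and library size), so 40 genes were tested among 13979.

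RNA came from NCI-H2009 cells, a line long established from a human lung adenocarcinoma, and every group carried dCas9-KRAB, a nuclease-dead Cas9 joined to a repressor domain that recruits silencing factors to chromatin. The groups were cells given e3 guide 1 (e3 #1), cells given e3 guide 2 (e3 #2), cells given a non-targeting guide (a guide RNA that matches no human sequence), and cells given no guide RNA, with 2 libraries each. Both e3 guides direct the fusion to the enhancer called e3, which belongs to an enhancer cluster near MYC, and the comparison asks what repression of that enhancer does to gene expression. All libraries come from 1 cell line, the labels leave unsaid if libraries of one group are separate cultures, and p-values therefore measure a spread between libraries that may be technical.

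MYC encodes a transcription factor that acts with its partner MAX at DNA elements called E-boxes, and ribosome production is among the best known programmes it drives in growing cells. A ribosome begins as a long precursor rRNA made by RNA polymerase I. Box C/D and box H/ACA ribonucleoproteins, each built around a small nucleolar RNA, modify that precursor, and separate sets of factors then assemble the small and the large subunit. Tumour cells that grow fast tend to have large, active nucleoli.

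The table held between 3811246 and 5657763 reads in genes per library, as inferred from the steps between low RPKM values, and the 40 genes tested had between 53 and 9128 reads in a library (median 356). Epithelial markers were high throughout, with EPCAM at 211 to 254.1 RPKM and KRT19 at 1009 to 1364 RPKM, and the lung factor NKX2-1 stood at 23.2 to 43.2 RPKM. The leukocyte gene PTPRC and the endothelial gene CDH5 stayed at or under 0.0768 RPKM, and the surfactant gene SFTPC was at 0. Other markers of cells outside the epithelium were mixed. CD68, listed as a leukocyte gene, stood at 12.2 to 31.8 RPKM, and CD3E was at 0. The fibroblast gene COL1A1 stood at 3.18 to 6.68 RPKM, with COL1A2 at up to 0.596 RPKM and PDGFRB at up to 0.072 RPKM. The libraries without a guide stood apart on the first principal component, at -36.9 and -38.3 against 5.74 to 18.5 for the other 6, so the e3 guides were compared with each control alone as well as with both together. MYC had 42.4 and 43.4 RPKM in the guide 1 libraries and 36.3 and 36.2 RPKM in the guide 2 libraries, against 88.9 and 90.1 RPKM in the non-targeting libraries and 74.6 and 72.7 RPKM in those without a guide. Its change was -1.16 ± 0.09 (SE, adjusted p = 0.00231) against the non-targeting guide and -0.88 ± 0.09 (SE, adjusted p = 0.000555) against no guide, on the scale of log2(RPKM + 1) used for every change here.

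The canonical E-box, CACGTG, reads the same on both strands. It was searched in the promoter windows of RefSeq (GRCh38.p14, 250 bases before to 50 after each annotated start), which held 33 of the 42 genes. The letters were present in the windows of 15 of these 33 genes (45.5%), of 1084 of 8550 tested genes with a window (12.7%) and of 2396 of 27305 genes in all (8.77%). In 12 of the 15, among them FBL, GNL3, NOP14 and MYBBP1A, an element began within the transcribed part of the window, between base 4 (WDR43) and base 36 (NOP2) counted from the start. In UTP20, EXOSC5, NOP10 and IMP4 a whole element lay upstream of the start, and the stretches that hold it are shown because they end at the base before the start and place the E-box in its sequence. Capitals mark the E-box, and each line reads 5′ to 3′ in the direction of the gene.
UTP20 (chr12:101279985-101280104, plus strand): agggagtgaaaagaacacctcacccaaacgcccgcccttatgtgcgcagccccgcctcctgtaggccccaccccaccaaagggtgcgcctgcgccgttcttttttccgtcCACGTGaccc
EXOSC5 (chr19:41397360-41397479, minus strand): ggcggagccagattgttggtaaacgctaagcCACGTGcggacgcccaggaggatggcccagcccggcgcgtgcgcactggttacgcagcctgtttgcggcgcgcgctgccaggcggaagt
NOP10 (chr15:34343137-34343326, minus strand): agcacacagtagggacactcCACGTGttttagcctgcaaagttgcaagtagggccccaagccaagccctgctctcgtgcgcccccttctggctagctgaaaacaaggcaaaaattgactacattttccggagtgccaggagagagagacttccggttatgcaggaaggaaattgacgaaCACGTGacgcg
IMP4 (chr2:130342674-130342896, plus strand): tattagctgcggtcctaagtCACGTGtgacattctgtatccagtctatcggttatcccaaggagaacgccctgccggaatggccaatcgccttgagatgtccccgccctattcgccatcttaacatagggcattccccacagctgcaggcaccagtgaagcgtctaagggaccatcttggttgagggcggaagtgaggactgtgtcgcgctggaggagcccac
The upstream E-box begins at position -10 from the start in UTP20, -89 in EXOSC5 and -203 in IMP4, and NOP10 has upstream E-boxes at -170 and -11. IMP4 and EXOSC5 have a further element after the start. A match of these letters does not show that a factor binds there, and an absent match says only that the letters are not in that window.

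Ribosome assembly genes were lower with the e3 guides than with the non-targeting guide. The log2 change was below 0 in 40 of 40 genes, against 50% of all genes tested, and its median was -0.39, beside 0.00 over all genes tested. In limma (Benjamini-Hochberg adjustment over 13979 genes, threshold 0.05) 22 of the 40 fell, 18 did not pass and none rose, where 3.54% of all genes tested fell and 3.3% rose. This fit, like those against no guide and both controls, took the 4 e3 libraries, 2 from each guide, as replicates of a single condition. Models with group means as samples or with an estimated correlation were run only against both controls, where fewer genes passed. The count of 22 was not refitted with either model. With 1 e3 library left out at a time, the calls for GAR1, GNL3, NIP7, NOC2L, NOP2, RRP9 and TCOF1 held in 1 fit each. Those for the other genes of the 22 held in more. In 38 of the 40 genes all 4 e3 libraries lay below both non-targeting libraries, which held for 16.3% of genes tested. These are averages over bulk RNA on a scale relative to each library's total, so a lower level in every cell, a lower level in some cells and a change in total RNA per cell cannot be told apart. The calls did not hold when either non-targeting library was left out, which leaves 1 library in that group, and the medians were -0.42 and -0.40. Without the first library of guide 2, 12 of the 40 genes fell, where 225 of 13961 genes tested fell. Without a filter on low values 8 of the 40 fell in this comparison, 1 against no guide and 4 against both controls. Of all 24832 genes in those fits 202, 882 and 196 fell, so the 1 against no guide is no excess.

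Against no guide the changes of the 40 genes had a median nearer 0. The median log2 change was -0.20, beside -0.03 over all genes tested, 35 of 40 were below 0, against 54.6% of genes tested, and 8 fell while 32 did not pass and none rose, where 8.03% of all genes tested fell and 8.68% rose. All 4 e3 libraries lay below both no-guide libraries in 20 genes, against 22.6% of genes tested. The calls did not hold when either no-guide library was left out, which leaves 1 library in that group. Without the first or second library of guide 2 the count was 4 and 3. In those fits 771 of 13961 and 844 of 13989 genes tested fell, so these counts are near the share over all genes. With both controls together the median was -0.30, beside -0.02 over all genes tested, and 11 fell, 29 did not pass and none rose, where 2.58% of all genes tested fell and 2.63% rose. In 39 of the 40 the change was below 0, against 53.4% of genes tested. Leaving out the first or second guide 1 library made the count of 11 fall to 4 or 5, leaving out a guide 2 library gave 1 or 0, and leaving out a non-targeting library gave 4 or 3. Over all genes, 13961 to 14002 in these fits, 206 or 206, 87 or 114 and 231 or 245 fell. In the fit where none of the 40 passed, 24 had an unadjusted p under 0.05. With all 8 libraries 26 of the 40 and 3102 of the 13979 genes tested had such a p. Other models gave 25 genes (4 groups in the model), 4 (replicate number as a block), 2 (an estimated correlation) and 0 (group means as samples, with 20 at an unadjusted p under 0.05). All 4 e3 libraries lay below all 4 control libraries in 19 of the 40 genes, against 7.51% of genes tested. The 5 genes that fell in all of these comparisons, which share the e3 libraries, were NCL, FBL, DKC1, GNL3 and WDR3. With 1 of the 6 libraries left out, the call against no guide held in 4 fits for NCL and for FBL, 3 for DKC1, 1 for GNL3 and 0 for WDR3, and that against the non-targeting guide in 4 for NCL and DKC1, 3 for FBL and WDR3 and 1 for GNL3.

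**Figure D1:**
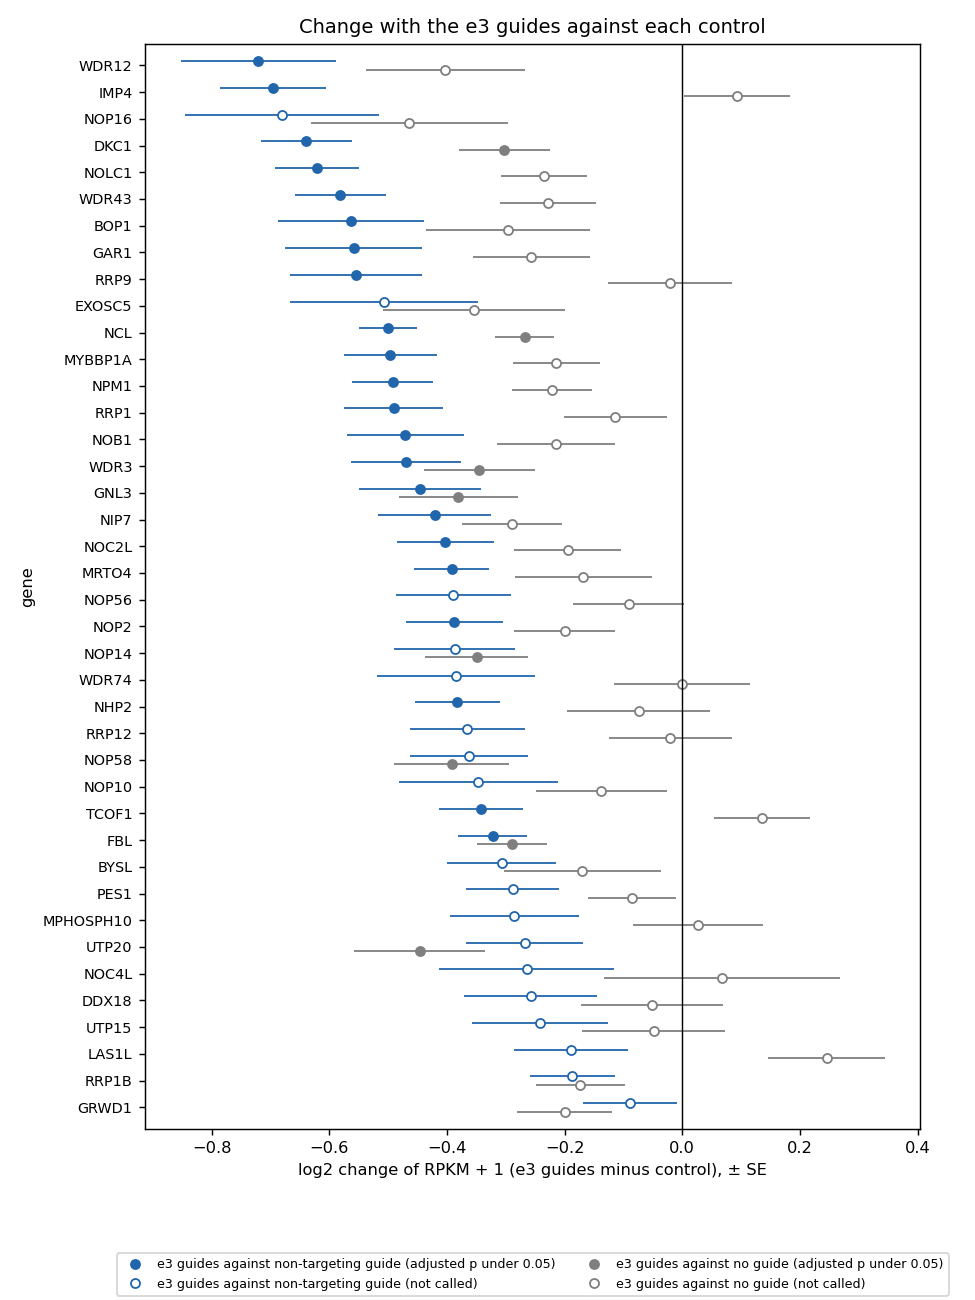
Log2 change of RPKM + 1 with the e3 guides (4 libraries) against the non-targeting guide (blue, 2 libraries) and against no guide (grey, 2 libraries) for 40 genes, with standard errors as bars and filled circles where the adjusted p was under 0.05. All blue points lie left of 0, and grey points lie left of 0 for 35 genes, with LAS1L, TCOF1 and IMP4 among those to the right.

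Box C/D ribonucleoproteins guide the methylation of rRNA. FBL, the methyltransferase itself, had 230.2 and 214 RPKM in the guide 1 libraries and 206 and 204 RPKM in the guide 2 libraries, against 262 and 272 RPKM in the non-targeting libraries and 256 and 266 RPKM in those without a guide. Every e3 library lay below every control library, and the controls were close to each other. FBL fell by a similar amount against either control, with a log2 change of -0.32 ± 0.06 (SE, adjusted p = 0.0204) for the non-targeting guide and -0.29 ± 0.06 (SE, adjusted p = 0.0142) for no guide.

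NOP58, a core protein of the same particle, had 52.2 and 50.3 RPKM in the guide 1 libraries and 59.2 and 46.3 RPKM in the guide 2 libraries, against 62.8 and 71.2 RPKM in the non-targeting libraries and 64.9 and 71.9 RPKM in those without a guide. Its e3 libraries also all lay below its control libraries, though the 2 libraries of guide 2 were far apart. It fell against no guide (-0.39 ± 0.10 SE, adjusted p = 0.0304), and against the non-targeting guide its change was of like size without passing (-0.36 ± 0.10 SE, adjusted p = 0.0749). Its partner NOP56 showed another order of levels, with 32.4 and 30.9 RPKM in the guide 1 libraries and 28.5 and 26.3 RPKM in the guide 2 libraries, against 36.6 and 41.3 RPKM in the non-targeting libraries and 32.4 and 30.4 RPKM in those without a guide. The libraries with guide 1 and without a guide overlapped, and the non-targeting libraries were highest. NOP56 had a change of -0.39 ± 0.10 (SE, adjusted p = 0.0559) against the non-targeting guide and -0.09 ± 0.09 (SE, adjusted p = 0.569) against no guide, neither of which passed. In the libraries of guide 2 NOP56 fell against the non-targeting guide (-0.49 ± 0.09 SE, adjusted p = 0.0124). RRP9, a protein of the particle that directs the first cuts of the precursor, had 46.4 and 35.3 RPKM in the guide 1 libraries and 37.7 and 37.8 RPKM in the guide 2 libraries, against 54.0 and 62.1 RPKM in the non-targeting libraries and 39.7 and 39.6 RPKM in those without a guide. It fell against the non-targeting guide (-0.55 ± 0.11 SE, adjusted p = 0.0285), and its e3 and no-guide levels overlapped (-0.02 ± 0.11 SE, adjusted p = 0.921).

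Box H/ACA ribonucleoproteins convert uridines of rRNA to pseudouridine, and the same proteins stabilise telomerase RNA. DKC1, which encodes the pseudouridine synthase dyskerin, had 54.7 and 55.3 RPKM in the guide 1 libraries and 46.9 and 52.9 RPKM in the guide 2 libraries, against 84.1 and 79.9 RPKM in the non-targeting libraries and 64.9 and 64.6 RPKM in those without a guide. Its e3 libraries were lowest, its non-targeting libraries were highest, its no-guide libraries lay between them, and no groups overlapped. DKC1 fell by 0.64 ± 0.08 (SE, adjusted p = 0.00727) against the non-targeting guide and by 0.30 ± 0.08 (SE, adjusted p = 0.0335) against no guide.

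Of the partners of dyskerin, GAR1 and NHP2 fell against the non-targeting guide. GAR1 had 17.8 and 17.4 RPKM in the guide 1 libraries and 17.2 and 14.8 RPKM in the guide 2 libraries, against 28.4 and 22.4 RPKM in the non-targeting libraries and 19.3 and 21.3 RPKM in those without a guide. It fell against the non-targeting guide (-0.56 ± 0.12 SE, adjusted p = 0.0315) and did not pass against no guide (-0.26 ± 0.10 SE, adjusted p = 0.121). With 1 library left out, its change against the non-targeting guide lay between -0.72 and -0.39. NHP2 had 89.7 and 99.0 RPKM in the guide 1 libraries and 105 and 99.97 RPKM in the guide 2 libraries, against 123 and 134 RPKM in the non-targeting libraries and 88.1 and 122 RPKM in those without a guide. The no-guide libraries of NHP2 lay on either side of the e3 libraries, and NHP2 fell against the non-targeting guide (-0.38 ± 0.07 SE, adjusted p = 0.0227) without passing against no guide (-0.07 ± 0.12 SE, adjusted p = 0.73). NOP10 had 97.0 and 115 RPKM in the guide 1 libraries and 91.1 and 86.4 RPKM in the guide 2 libraries, against 108 and 142 RPKM in the non-targeting libraries and 100.5 and 113 RPKM in those without a guide. Its e3 libraries overlapped both controls, and it did not pass against either (-0.35 ± 0.14 SE, adjusted p = 0.185 and -0.14 ± 0.11 SE, adjusted p = 0.453).

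**Figure D2:**
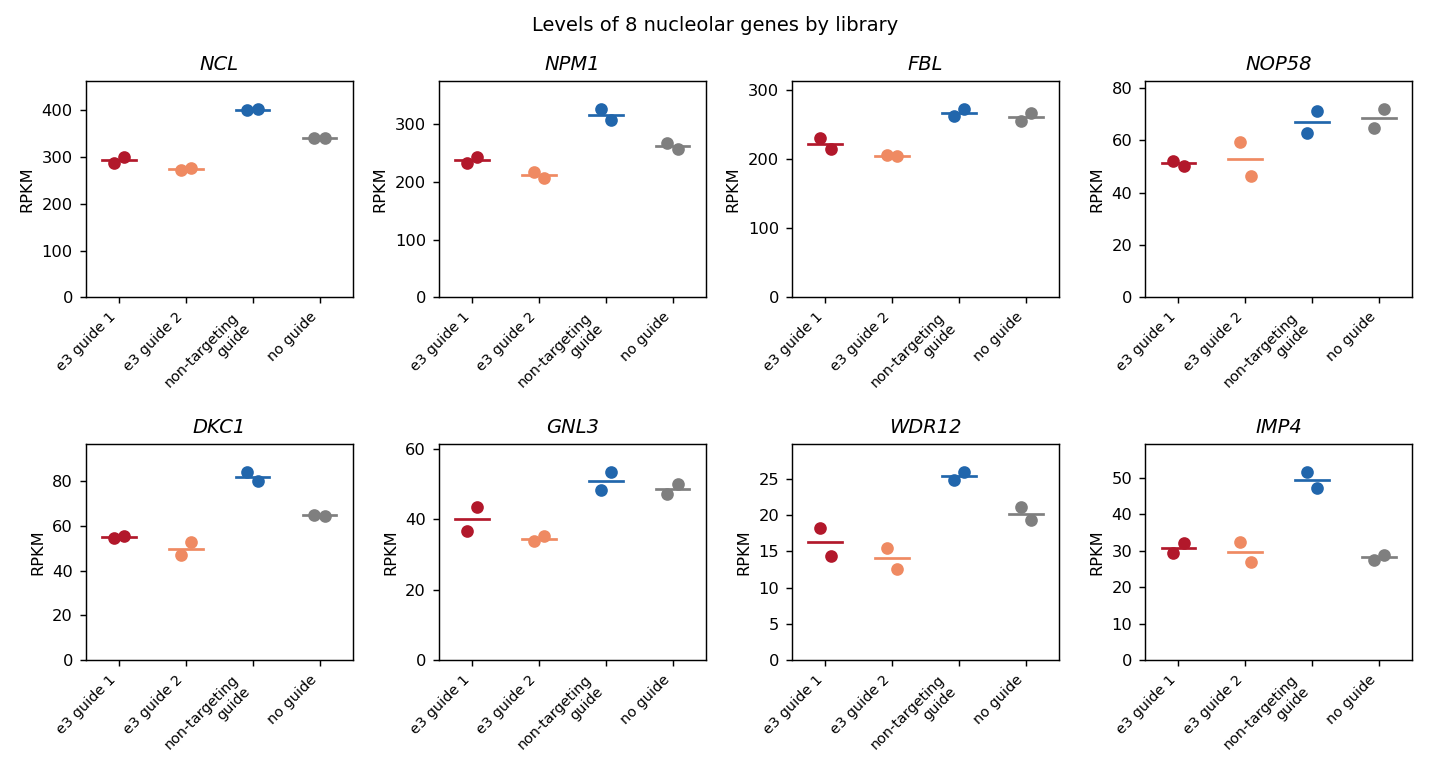
RPKM of 8 nucleolar genes in each of the 8 libraries (points) with the mean of each group (lines), axes starting at 0. FBL, NOP58 and GNL3 stand at like levels in both controls, whereas NCL, NPM1, DKC1, WDR12 and IMP4 are higher in the non-targeting libraries than in the no-guide libraries, and IMP4 without a guide is at its e3 level.

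Of 5 scaffold, chaperone and rRNA transcription genes, 5 fell against the non-targeting guide (3.54% of all genes tested) and 1, NCL, against no guide (8.03% of all genes tested). NCL encodes nucleolin, which binds nascent precursor rRNA, and was the most abundant gene of the 40, with 287 and 299.7 RPKM in the guide 1 libraries and 273 and 276 RPKM in the guide 2 libraries, against 400.4 and 403 RPKM in the non-targeting libraries and 342 and 341 RPKM in those without a guide. Its libraries paired closely within each group, and every e3 library lay below every control library. NCL fell by 0.50 ± 0.05 (SE, adjusted p = 0.00415) against the non-targeting guide and by 0.27 ± 0.05 (SE, adjusted p = 0.00969) against no guide. NPM1, which encodes the nucleolar chaperone nucleophosmin, had 233 and 243 RPKM in the guide 1 libraries and 217 and 208 RPKM in the guide 2 libraries, against 326 and 307 RPKM in the non-targeting libraries and 267 and 258 RPKM in those without a guide. It fell against the non-targeting guide (-0.49 ± 0.07 SE, adjusted p = 0.00936), and against no guide its 4 e3 libraries were all lower without passing (-0.22 ± 0.07 SE, adjusted p = 0.0614). GENCODE 29 names 45 pseudogenes of NPM1, which can share its reads, so its level is uncertain.

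NOLC1 encodes a chaperone that carries small nucleolar ribonucleoproteins, and had 56.3 and 52.4 RPKM in the guide 1 libraries and 51.8 and 48.1 RPKM in the guide 2 libraries, against 79.2 and 82.0 RPKM in the non-targeting libraries and 61.7 and 61.2 RPKM in those without a guide. It fell by 0.62 ± 0.07 (SE, adjusted p = 0.00653) against the non-targeting guide and did not pass against no guide (-0.23 ± 0.07 SE, adjusted p = 0.0623). MYBBP1A, a nucleolar Myb-binding protein gene, fell against the non-targeting guide (-0.50 ± 0.08 SE, adjusted p = 0.0147; no guide -0.21 ± 0.07 SE, adjusted p = 0.0879). TCOF1 encodes treacle, a cofactor of rRNA gene transcription, and its e3 levels overlapped those without a guide. It averaged 43.7 ± 2.54 RPKM with the e3 guides (SD, n = 4), and stood at 57.1 and 54.2 RPKM in the non-targeting libraries and 37.3 and 42.2 RPKM in the no-guide libraries. TCOF1 fell against the non-targeting guide (-0.34 ± 0.07 SE, adjusted p = 0.0312), and its change against no guide was above 0 and did not pass (0.14 ± 0.08 SE, adjusted p = 0.302).

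**Figure D3:**
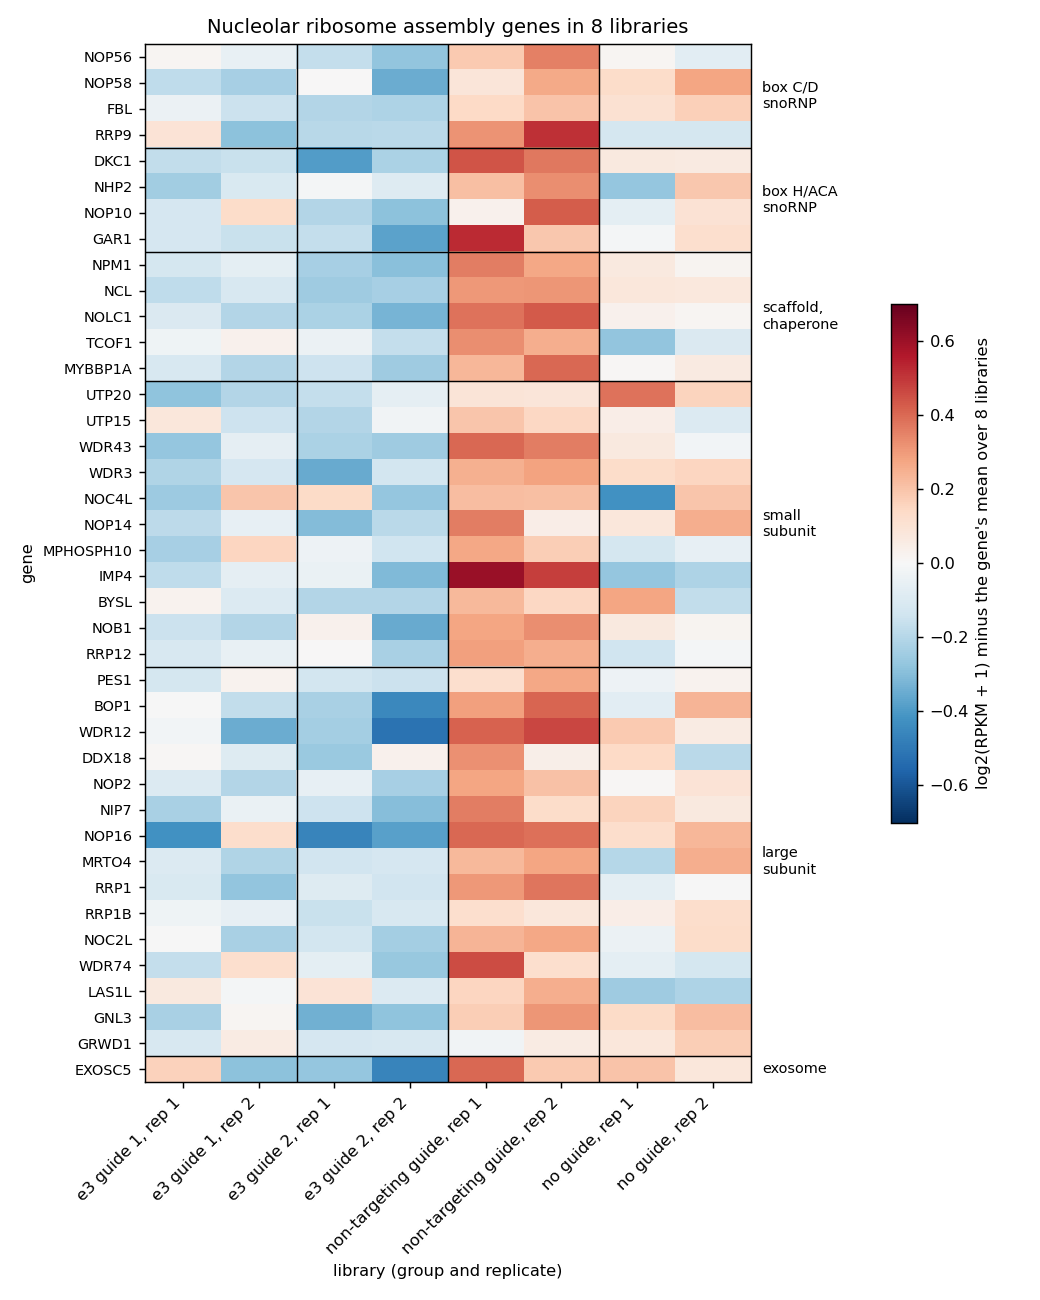
Log2(RPKM + 1) of 40 genes in 8 libraries as the deviation from each gene's mean over the libraries (red above, blue below), with genes in rows by role and libraries in columns by group and replicate. The 2 non-targeting columns are red for nearly every gene, the e3 columns are mostly blue, and the no-guide columns are mixed.

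Among 11 genes of small subunit assembly 4 fell against the non-targeting guide and 3 against no guide, where 3.54% and 8.03% of all genes tested fell. WDR3, a component of the large early assembly called the small subunit processome, had 14.6 and 15.6 RPKM in the guide 1 libraries and 13.1 and 15.5 RPKM in the guide 2 libraries, against 20.5 and 20.9 RPKM in the non-targeting libraries and 18.8 and 19.1 RPKM in those without a guide. All its e3 libraries lay below all its controls, and it fell against both controls (-0.47 ± 0.09 SE, adjusted p = 0.0263 for the non-targeting guide and -0.34 ± 0.09 SE, adjusted p = 0.0417 for no guide). The WDR3 call against no guide was lost whichever library was left out, with changes between -0.37 and -0.29. NOP14, another processome gene, had 34.9 and 38.2 RPKM in the guide 1 libraries and 32.1 and 34.8 RPKM in the guide 2 libraries, against 51.3 and 41.2 RPKM in the non-targeting libraries and 42.1 and 47.6 RPKM in those without a guide. It fell against no guide (-0.35 ± 0.09 SE, adjusted p = 0.0307) and had a like change against the non-targeting guide that did not pass (-0.39 ± 0.10 SE, adjusted p = 0.0674). Exons of NOP14 overlap a gene on the other strand.

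UTP20, a processome gene with an E-box just before its start, had its highest levels without a guide, with 8.13 and 8.61 RPKM in the guide 1 libraries and 8.88 and 9.61 RPKM in the guide 2 libraries, against 10.8 and 10.8 RPKM in the non-targeting libraries and 13.4 and 11.3 RPKM in those without a guide. It fell against no guide (-0.45 ± 0.11 SE, adjusted p = 0.0295) and did not pass against the non-targeting guide (-0.27 ± 0.10 SE, adjusted p = 0.166). UTP15, which links the processome to rRNA transcription, had the lowest mean of the 40 genes, with 8.17 and 6.84 RPKM in the guide 1 libraries and 6.54 and 7.54 RPKM in the guide 2 libraries, against 8.92 and 8.60 RPKM in the non-targeting libraries and 7.96 and 7.12 RPKM in those without a guide. The e3 and no-guide libraries of UTP15 overlapped, the non-targeting libraries lay just above, and its change of -0.24 ± 0.12 (SE, adjusted p = 0.27) against the non-targeting guide did not pass. WDR43 fell against the non-targeting guide (-0.58 ± 0.08 SE, adjusted p = 0.00843), as did NOB1, which encodes the nuclease that makes the mature end of the small rRNA (-0.47 ± 0.10 SE, adjusted p = 0.0323), and neither passed against no guide. The other small subunit genes, NOC4L, MPHOSPH10, BYSL and RRP12, did not pass against either control, with changes between -0.37 and -0.26 against the non-targeting guide.

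IMP4, a partner of the box C/D particle that RRP9 belongs to, showed the widest gap between the controls. It had 29.5 and 32.0 RPKM in the guide 1 libraries and 32.4 and 26.9 RPKM in the guide 2 libraries, against 51.6 and 47.3 RPKM in the non-targeting libraries and 27.6 and 28.8 RPKM in those without a guide. The e3 and no-guide libraries overlapped, and both non-targeting libraries stood far above them. IMP4 fell by 0.70 ± 0.09 (SE, adjusted p = 0.00808) against the non-targeting guide, and its change against no guide was 0.09 ± 0.09 (SE, adjusted p = 0.54). In GENCODE 29 its exons overlap those of CCDC115 on the other strand, as the exons of 17 of the 40 genes overlap some gene there, and whether reads were counted by strand is not given in the sources used here. CCDC115 averaged 12.8 RPKM with the e3 guides and 13.3 RPKM with the non-targeting guide, and did not pass (-0.04 ± 0.13 SE, adjusted p = 0.891).

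Of 15 tested genes of large subunit assembly 8 fell against the non-targeting guide, where 3.54% of all genes tested fell. Against no guide 1 of them fell, GNL3, a share of 6.67% that is below the 8.03% over all genes tested. WDR12, which acts with PES1 and BOP1 in a complex needed for large subunit rRNA maturation, had 18.2 and 14.3 RPKM in the guide 1 libraries and 15.5 and 12.6 RPKM in the guide 2 libraries, against 24.9 and 26.0 RPKM in the non-targeting libraries and 21.1 and 19.3 RPKM in those without a guide. All e3 libraries lay below all controls, and the change of -0.72 ± 0.13 (SE, adjusted p = 0.0209) against the non-targeting guide was the furthest from 0 among the 40 genes. Its change against no guide was -0.40 ± 0.14 (SE, adjusted p = 0.0817). Its partner BOP1 fell against the non-targeting guide (-0.56 ± 0.12 SE, adjusted p = 0.0367), and PES1 did not pass (-0.29 ± 0.08 SE, adjusted p = 0.0729). In the libraries of guide 2 PES1 fell against the non-targeting guide (-0.33 ± 0.08 SE, adjusted p = 0.0442). GNL3 encodes nucleostemin, a nucleolar GTPase, and had 36.6 and 43.4 RPKM in the guide 1 libraries and 33.8 and 35.2 RPKM in the guide 2 libraries, against 48.4 and 53.4 RPKM in the non-targeting libraries and 47.2 and 49.97 RPKM in those without a guide. It fell against the non-targeting guide (-0.45 ± 0.10 SE, adjusted p = 0.0431) and against no guide (-0.38 ± 0.10 SE, adjusted p = 0.0377).

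NIP7, a large subunit assembly factor, had 31.8 and 36.2 RPKM in the guide 1 libraries and 33.7 and 30.2 RPKM in the guide 2 libraries, against 48.2 and 40.9 RPKM in the non-targeting libraries and 41.7 and 39.3 RPKM in those without a guide. All e3 libraries lay below all controls, and it fell against the non-targeting guide (-0.42 ± 0.10 SE, adjusted p = 0.0403) and did not pass against no guide (-0.29 ± 0.08 SE, adjusted p = 0.0529). NOP16 had 10.0 and 15.1 RPKM in the guide 1 libraries and 9.72 and 10.4 RPKM in the guide 2 libraries, against 18.5 and 18.3 RPKM in the non-targeting libraries and 15.1 and 16.4 RPKM in those without a guide. The second library of guide 1 stood apart from the other 3 e3 libraries at the level of the lower no-guide library. NOP16 fell against both controls together (-0.57 ± 0.14 SE, adjusted p = 0.0439) but passed against neither control alone. Against the non-targeting guide it just missed the threshold (-0.68 ± 0.17 SE, adjusted p = 0.05003), and against no guide its change was -0.46 ± 0.17 (SE, adjusted p = 0.1005). In the libraries of guide 2 it fell against the non-targeting guide (-0.81 ± 0.17 SE, adjusted p = 0.0222). NOP2, an rRNA methyltransferase gene (-0.39 ± 0.08 SE, adjusted p = 0.0331), RRP1 (-0.49 ± 0.08 SE, adjusted p = 0.0181), MRTO4 (-0.39 ± 0.06 SE, adjusted p = 0.0156) and NOC2L (-0.40 ± 0.08 SE, adjusted p = 0.0295) also fell against the non-targeting guide. DDX18, RRP1B and WDR74 did not pass against either control, with changes between -0.38 and -0.19 against the non-targeting guide.

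Neither GRWD1 nor LAS1L passed against either control. GRWD1, which also acts as a histone chaperone, averaged 26.3 ± 1.65 RPKM with the e3 guides and 29.2 ± 1.71 RPKM in the controls (SD, n = 4 each), with a change of -0.09 ± 0.08 (SE, adjusted p = 0.582) against the non-targeting guide and -0.20 ± 0.08 (SE, adjusted p = 0.136) against no guide. LAS1L, which encodes a nuclease that cuts the spacer between the large subunit rRNAs, stood at 11.5 and 12.5 RPKM with the non-targeting guide and at 8.50 and 8.73 RPKM without a guide. Its e3 mean of 10.4 ± 0.680 RPKM (SD, n = 4) lay between them, with changes of -0.19 ± 0.10 (SE, adjusted p = 0.308) against the non-targeting guide and 0.25 ± 0.10 (SE, adjusted p = 0.136) against no guide, where all 4 e3 libraries lay above. EXOSC5, a subunit of the RNA exosome that trims rRNA ends, had a change of -0.51 ± 0.16 (SE, adjusted p = 0.106) against the non-targeting guide that did not pass, and fell against it in the libraries of guide 2 (-0.66 ± 0.15 SE, adjusted p = 0.0347). PPAN was listed at 0 in 6 libraries, with 1 read in one no-guide library and 2 reads in one non-targeting library. In GENCODE 29 its exons overlap those of a read-through gene.

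Each e3 guide alone gave the same direction against the non-targeting guide, and neither alone was tested against no guide. The controls differed over these genes, as given below. With guide 1 the median change against the non-targeting guide was -0.37, 40 of 40 genes were below 0 (50% of genes tested), and 10 fell, where 2.45% of all genes tested fell and 2.32% rose. With guide 2 the median was -0.45, 40 of 40 were below 0 (49.2% of genes tested), and 24 fell, where 5.32% of all genes tested fell and 4.03% rose. All 10 genes that fell with guide 1 also fell with guide 2, a comparison that shares the non-targeting libraries. They were NCL, NPM1, NOLC1, DKC1, IMP4, WDR43, RRP1, FBL, MYBBP1A and WDR12, and the first 4 of these fell with guide 1 whichever single library of the 8 was left out. Without either non-targeting library the count for guide 1 was 4, and without its second library 6. For guide 2 it was 11 and 10 without the non-targeting libraries, and 13 and 8 without its own first and second library.

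The guides themselves were not told apart by the test. Between guide 2 and guide 1 none of the 40 genes passed in limma, where 0.00715% of all genes tested fell and 0.0215% rose. An unadjusted p under 0.05 was seen in 4 of the 40, all lower with guide 2. That is a share like the one over all genes tested, 1451 of 13979, of which 827 were lower. The 4 were NPM1 (-0.17 ± 0.05 SE, adjusted p = 0.295), NCL (-0.10 ± 0.03 SE, adjusted p = 0.396), FBL (-0.11 ± 0.05 SE, adjusted p = 0.456) and NOP56 (-0.20 ± 0.09 SE, adjusted p = 0.464). In 33 of 40 genes the change was below 0, against 50% of genes tested, and the median was -0.09. MYC itself had 36.3 and 36.2 RPKM in the guide 2 libraries, against 42.4 and 43.4 RPKM in the guide 1 libraries, and did not pass (-0.24 ± 0.05 SE, adjusted p = 0.193).

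The controls differed from each other over these genes. With the non-targeting guide 10 of 40 rose against no guide, 30 did not pass and none fell, where 6.55% of all genes tested rose and 5.81% fell, and the median change was 0.24, beside -0.01 over all genes tested. The 10 were IMP4 (0.79 ± 0.10 SE, adjusted p = 0.00229), NCL (0.23 ± 0.03 SE, adjusted p = 0.00437), NOLC1 (0.39 ± 0.06 SE, adjusted p = 0.00736), NPM1 (0.27 ± 0.05 SE, adjusted p = 0.00784), TCOF1 (0.48 ± 0.08 SE, adjusted p = 0.00792), DKC1, RRP9, WDR43, RRP1 and LAS1L. Genes whose controls lay close included NOP58 (-0.03 ± 0.12 SE, adjusted p = 0.901), FBL (0.03 ± 0.05 SE, adjusted p = 0.717), RRP1B (0.01 ± 0.07 SE, adjusted p = 0.923) and NOP14 (0.04 ± 0.12 SE, adjusted p = 0.869). MYC rose between the same groups (0.28 ± 0.05 SE, adjusted p = 0.0133). In 27 of the 40 genes both non-targeting libraries lay above both no-guide libraries, against 27.2% of genes tested. Every comparison of the e3 guides with one control or the other carries this difference. NCL, NPM1, NOLC1, DKC1, IMP4, WDR43 and RRP1 were also among the genes that fell with each e3 guide against the non-targeting guide. The count was 3 and 4 without the first and second non-targeting library, and 5 without the first no-guide library.

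Group means put the non-targeting guide highest in 37 of the 40 genes and guide 2 lowest in 28, against 24.4% and 26% of genes tested. Both e3 means lay below both control means in 32 of the 40, against 23.2% of genes tested. Per library, the median deviation of the 40 genes from their own means was -0.12 and -0.0996 in the guide 1 libraries, -0.17 and -0.23 in the guide 2 libraries, 0.28 and 0.27 in the non-targeting libraries and 0.0359 and 0.067 in the no-guide libraries. Over all genes tested the same median stayed between -0.0018 and 0.027 in the 8 libraries. The 40 genes together took 0.536 and 0.546% of all RPKM in the guide 1 libraries, 0.524 and 0.505% in the guide 2 libraries, 0.687 and 0.692% in the non-targeting libraries and 0.599 and 0.62% in the no-guide libraries. No 2 groups overlapped in this share. NCL, NPM1 and FBL made up 39.3% of the summed level.

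**Figure D4:**
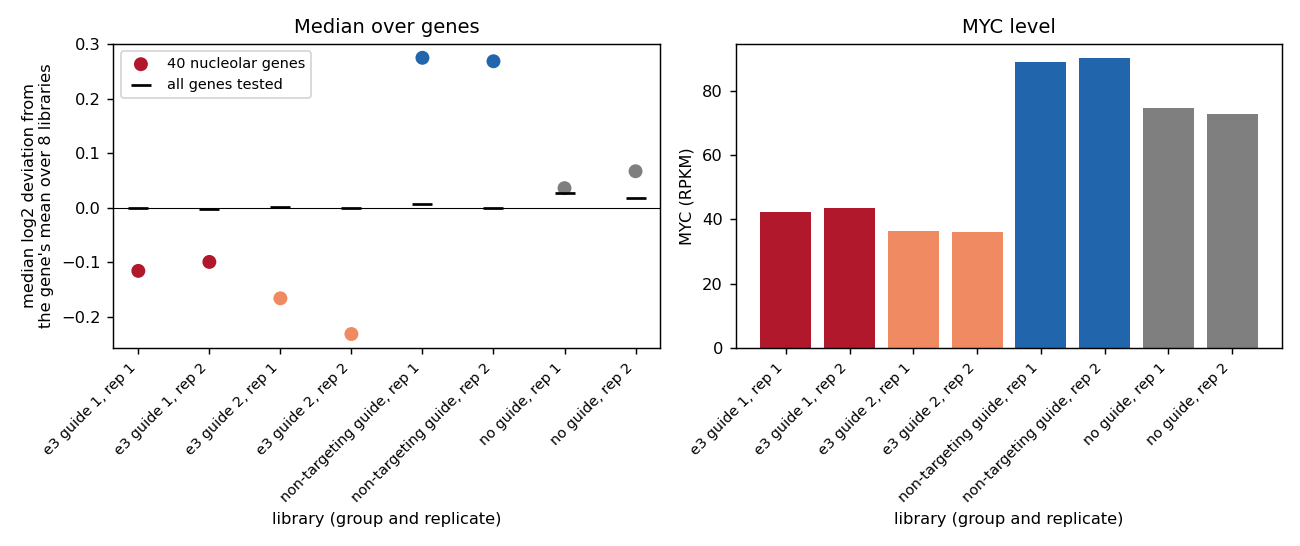
Left, the median over 40 nucleolar genes (circles) and over all 13979 genes tested (dashes) of the deviation of log2(RPKM + 1) from the gene's mean over 8 libraries. Right, MYC in RPKM in the same libraries, with an axis from 0. In both panels the order of the groups is guide 2, guide 1, no guide and non-targeting guide, low to high.

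Median differences between the 2 libraries of a group over the 40 genes were 0.12 for guide 1, 0.11 for guide 2, 0.082 for the non-targeting libraries and 0.091 for those without a guide, on the log2 scale. These set the scale of the spread beside the group changes above.

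A wider list of 137 other ribosome biogenesis genes gave medians nearer 0. Of these, 136 had a row and 134 were tested. Against the non-targeting guide 24 fell, none rose and 110 did not pass, with 17.9% lower beside 3.54% of all genes tested and a median of -0.26. Against no guide 10 fell, 2 rose and 122 did not pass, with a median of -0.13, and the 7.46% that fell are no excess over the 8.03% of all genes tested. Against both controls 11 fell, none rose and 123 did not pass, where 2.58% of all genes tested fell, with a median of -0.19. MDN1, which encodes a large ATPase that strips factors from the maturing large subunit, averaged 3.48 ± 0.42 RPKM with the e3 guides and 6.96 ± 1.05 RPKM in the controls (SD, n = 4 each; -0.83 ± 0.13 SE, adjusted p = 0.00996). NAT10, an RNA acetyltransferase gene, averaged 15.1 ± 1.79 RPKM with the e3 guides and 22.0 ± 1.72 RPKM in the controls (SD, n = 4 each; -0.52 ± 0.10 SE, adjusted p = 0.019). RIOK1 (-0.43 ± 0.09 SE, adjusted p = 0.03), a kinase gene of late small subunit maturation, and the processome genes NOL11 (-0.27 ± 0.06 SE, adjusted p = 0.0318) and WDR36 (-0.41 ± 0.09 SE, adjusted p = 0.0322) also fell. The changes of these named genes are against both controls together. In limma against the non-targeting guide alone RIOK1 (adjusted p = 0.0533) and WDR36 (adjusted p = 0.0946) did not pass, while MDN1, NAT10 and NOL11 did. Against no guide alone MDN1, NAT10, RIOK1, NOL11 and WDR36 all passed.

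An E-box in the window was about as frequent among genes that fell as among those that did not pass. Of the genes with a promoter window, 9 of 19 that fell against the non-targeting guide held the letters, and 6 of 13 that did not pass held them. In that comparison all 40 genes had a change below 0, and 35 had an unadjusted p under 0.05 in limma, beside 3063 of all 13979 genes tested. The split therefore does not part changed from unchanged genes, and whether the E-box goes with the change was not tested. The 4 genes printed above were of both kinds, since IMP4 fell and UTP20, NOP10 and EXOSC5 did not pass in that comparison. EXOSC5 did fall against the non-targeting guide in the libraries of guide 2. Against no guide UTP20 fell, and IMP4, NOP10 and EXOSC5 did not pass.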

How the data were processed

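RNA-seq of NCI-H2009 cells with dCas9-KRAB gave 8 libraries in 4 groups of 2. The authors deposited gene-level RPKM values in 1 table. The submitters' processing notes name the genome build hg19 and Cufflinks, without a role or version, and the aligner, the annotation and the strand setting are not given in the sources used here. From the RPKM, log2(RPKM + 1) was computed where a gene averaged 1 RPKM or more across all 8 libraries, and tested with limma 3.58.1 in R 4.3.3 (two-sided, variance trend, Benjamini-Hochberg adjustment over all 13979 genes, threshold 0.05). A fold change on this scale understates the change of low genes. The e3 guides were fitted against controls in models of those libraries, and single guides and the controls in a model of the 4 groups. Reads per library were inferred from the steps between low RPKM values, since 13977 of the 13979 genes came out as whole reads to within 0.03 reads, and no count test was run. The fit was tested on simulated data in which the groups pooled on one side of a comparison did not differ. That test therefore does not show how the pooled fits behave where guides or controls differ. The 2 libraries of a group differed by more than sampling noise, with a chi-square per degree of freedom of 1.87 to 2.04.

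The members and the lists were chosen with earlier results of these data known. Values in every library are given for the 10 genes with the smallest p in the e3 guides against both controls, the 4 with the smallest p in each of the other 6 comparisons, the genes with the highest and lowest mean, and all box C/D and H/ACA genes. Up to 5 other pathway genes in each direction are named by smallest p. The values given for TCOF1, GRWD1 and LAS1L, and the genes named for like controls, were chosen after their values were seen. Alternatives were the pseudocount, the filter, median-ratio scaling, the model (against both controls only), a replicate block and leaving out each library. RRS1 and RPP25 were not analysed here. Promoter sequences are RefSeq's (GRCh38.p14), and no coordinates were converted between builds.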

Additional observations from a re-analysis of the deposited data

How the results depend on the processing

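With 2 libraries per group the counts of genes past the threshold depended on the fit, while none of 1542 gene-level alternatives reversed a called change. The sign changed in 2 of them, both for LAS1L against both controls without a no-guide library, where it was called in neither fit. Of the 1542, 1142 stayed on the same side of the threshold, 375 lost and 25 gained it. Only against both controls were all 40 genes followed, so a gain could arise only there. The 29 genes that did not pass in that comparison count among the 1542 and could not lose a call. In the other comparisons only genes already called were followed, so the lack of a reversal says little. Against both controls, where 11 genes fell, 4 did so without a filter on low values, 7 with median-ratio scaling, 4 with the replicate number as a block, 25 with 4 groups in the model, 2 with an estimated correlation and 0 with group means as samples (20 at an unadjusted p under 0.05). Without a filter 8 fell against the non-targeting guide, 1 against no guide and 15 with guide 2, where 202, 882 and 490 of all 24832 genes fell. Under the replicate block 5 fell against no guide, where 898 of all 13979 genes fell. Same-numbered libraries did not deviate together (correlations of -0.0223 to 0.0138 over 6 pairs), so the block is an alternative only. Leaving out one library at a time gave 0 to 9 genes against both controls, 0 to 20 against the non-targeting guide, 0 to 9 against no guide, 4 to 12 with guide 1, 8 to 23 with guide 2 and 3 to 9 between the controls. Between the guides 0 genes passed in every setting. Over all genes tested, 727 passed against both controls in the fit reported, beside 406 without a filter, 387 with the block, 2422 with 4 groups, 256 with an estimated correlation and 1 with group means. Against the non-targeting guide 956 passed, beside 379 without a filter, 597 with the block, and 6 and 17 without its first and second library. With guide 1 667 passed, beside 409 without a filter. Between the guides 4 passed, beside 9 without a filter or with median-ratio scaling, 24 at a mean of at least 5 RPKM and 1 with the block. The causes of these shifts were not tested.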
